A study of Mus musculus with 21 samples.

Results

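The 9 genes followed here, of blood coagulation and of the plasminogen system, were chosen by name from the 32285 genes of a single-cell RNA sequencing series of mouse melanoma. *F3* encodes tissue factor, the cell-surface starter of coagulation, and *Tfpi* its inhibitor. *Thbd* encodes thrombomodulin, the endothelial thrombin receptor that turns thrombin toward activation of protein C. *F2r* and *F2rl1* encode the protease-activated receptors PAR1 and PAR2, and *Vwf* encodes von Willebrand factor, which tethers platelets. *Plat* and *Plau* encode the tissue-type and urokinase-type plasminogen activators, and *Plaur* the urokinase receptor.

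The study transplanted fragments of the MT-ret melanoma, a mouse tumor line kept by passage in animals, under the skin of mT/mG mice aged 8 to 10 weeks. The mT/mG reporter makes all host cells express red tdTomato from a ubiquitous promoter, and no Cre was present, so that the unlabelled melanoma cells could be sorted away from the host. Primary tumors were resected and lung metastases were collected later. Host cells, called the tumor microenvironment (TME), were sorted as living tdTomato+ cells with or without removal of CD45+ leukocytes, and the sources read here do not say which libraries had that removal. The melanoma (MM) cells were the tdTomato- fraction. After 5 library names that held the same cells as another were counted once, 16 libraries with 100359 cells remained. These were 4 of unchallenged lung, 4 of primary tumor TME and 4 of lung metastasis TME, with 2 of primary tumor MM cells and 2 of metastasis MM cells. The labels also name the lung as tissue for the primary tumors, and the sample names were followed instead.

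Total counts ran from 6158006 to 53506609 UMIs in the lung libraries, from 1777036 to 17577997 in primary tumor TME and from 2750267 to 27672199 in metastasis TME. The MM libraries held 2910056 to 60339415 UMIs. By the cluster names given below, the sorts were not pure. Metastasis TME replicate 5 held 2108 melanoma cells among its 5166 cells, and metastasis MM replicate 4 held 284 among 638. Replicate 1-3 of both TME groups pooled small libraries of several mice. Primary tumor TME replicate 6 had a median of 1203 UMIs per cell, against 4423 to 5356 in the rest of its group. At least 1561 of its 2383 cells had no cell type name. Replicate 6 of the lung stood apart from the other lung libraries, with 25966 cells and a median of 1605 UMIs per cell. Without it, every call of a member between tissues in the whole classes held except that of *Vwf* in fibroblasts. Calls within single cell types were not rerun without it. A library labelled as metastasis MM cells was identical to metastasis TME replicate 6 and was counted once, as the latter. Without it, every member call between tissues in the whole classes held except that of *Plau* in macrophages and monocytes of metastasis against lung. Levels are in CPM, the UMIs of a gene summed over a cell class in a library and scaled to the total UMIs of that class. In such sums, fewer cells of a type and less RNA per cell cannot be told apart.

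Coagulation starts when plasma factors meet tissue factor, which healthy vessels keep outside the endothelium, on fibroblasts, epithelium and other cells around the vessel. Endothelium keeps the blood fluid through thrombomodulin and tissue factor pathway inhibitor, and holds von Willebrand factor in storage granules, above all in larger vessels. Thrombin and related proteases also signal through protease-activated receptors. Plasminogen activators produce plasmin, which dissolves fibrin and cuts matrix, and the urokinase receptor focuses this activity on the surface of migrating and inflammatory cells.

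In the GENCODE vM21 annotation of GRCm38, *Tfpi* lies at chr2:84432855-84476775 and *Thbd* at chr2:148404466-148408188, both on the minus strand. *F3* lies at chr3:121723537-121735048, *Vwf* at chr6:125546774-125686679, *Plaur* at chr7:24462484-24475968, *Plat* at chr8:22757727-22782844 and *Plau* at chr14:20836660-20843385, all on the plus strand. The genes of the 2 protease-activated receptors lie on the minus strand of chromosome 13, *F2rl1* at chr13:95511732-95525227 and *F2r* at chr13:95601803-95618487. RefSeq promoter sequence (GRCm38.p6) matched 4 of the 9 genes, namely *F3*, *Plaur*, *F2r* and *Tfpi*. The 250 bases before the start are shown for these genes to give the sequence beside the levels that follow. *Tfpi* had 2 windows, and the one before its outermost start is shown. Starts are those of RefSeq, and the GENCODE genes of *F2r* and *Tfpi* begin further out, so that the last bases of these windows, with the *F2r* CACCC box nearest to the start, lie inside the gene as GENCODE has it. Capitals mark matches on either strand to TGANTCA, the core bound by AP-1 factors, to CACCC, a box bound by Krüppel-like factors, and to TATAAA, the TATA box. Each window is named by gene and runs 5′ to 3′ toward the start. The windows are chr3:121723287-121723536 (plus strand) for *F3*, chr7:24462233-24462482 (plus) for *Plaur*, chr13:95618467-95618716 (minus) for *F2r* and chr2:84476760-84477009 (minus) for *Tfpi*.
F3: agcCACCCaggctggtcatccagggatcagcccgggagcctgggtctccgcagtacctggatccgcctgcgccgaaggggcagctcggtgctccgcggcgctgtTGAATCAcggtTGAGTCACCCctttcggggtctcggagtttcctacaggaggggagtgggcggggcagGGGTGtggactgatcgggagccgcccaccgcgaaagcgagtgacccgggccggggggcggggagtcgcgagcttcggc
Plaur: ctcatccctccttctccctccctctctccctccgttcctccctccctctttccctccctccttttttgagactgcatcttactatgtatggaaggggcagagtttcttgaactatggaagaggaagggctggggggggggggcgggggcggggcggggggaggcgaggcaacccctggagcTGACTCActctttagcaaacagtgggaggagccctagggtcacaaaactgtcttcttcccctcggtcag
F2r: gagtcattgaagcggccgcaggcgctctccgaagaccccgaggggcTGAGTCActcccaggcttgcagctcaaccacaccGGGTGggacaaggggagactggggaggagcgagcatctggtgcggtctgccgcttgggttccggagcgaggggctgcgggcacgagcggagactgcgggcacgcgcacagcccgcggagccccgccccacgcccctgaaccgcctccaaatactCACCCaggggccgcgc
Tfpi: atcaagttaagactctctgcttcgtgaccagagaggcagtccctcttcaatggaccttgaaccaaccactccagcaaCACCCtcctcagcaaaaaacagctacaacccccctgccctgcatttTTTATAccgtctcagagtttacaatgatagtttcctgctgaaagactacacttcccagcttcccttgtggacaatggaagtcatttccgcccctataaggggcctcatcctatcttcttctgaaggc

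TGANTCA had 2 matches in the *F3* window, 146 and 135 bases before the start, and the nearer one shares its last 2 bases with a CACCC box. It had 1 match in *Plaur*, at 69 bases, and 1 in *F2r*, at 204 bases. Of 32851 promoter windows of this length, 6.7% held TGANTCA, 52.0% held CACCC and 12.4% held TATAAA. These matches describe letters, and whether a factor binds there was not tested.

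Cells were grouped without these genes into 25 named types, each name standing for a cluster that resembles the type by its markers, and 90469 of 100359 cells were named. Libraries with at least 10 cells of a type were averaged. The plot of mean levels by cell type shows that the 9 genes divided the tissue between them. *Vwf* and *Thbd* were highest in endothelium, *Plat* in arterial endothelium and fibroblasts, *F3* in club cells and adventitial fibroblasts, and *Plaur* in myeloid cells and aerocytes. These are descriptions of the levels, with the SD over libraries, and neighbors in an order were called separate only where their gap on the log2 scale exceeded the larger SD.

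**Figure D1:**
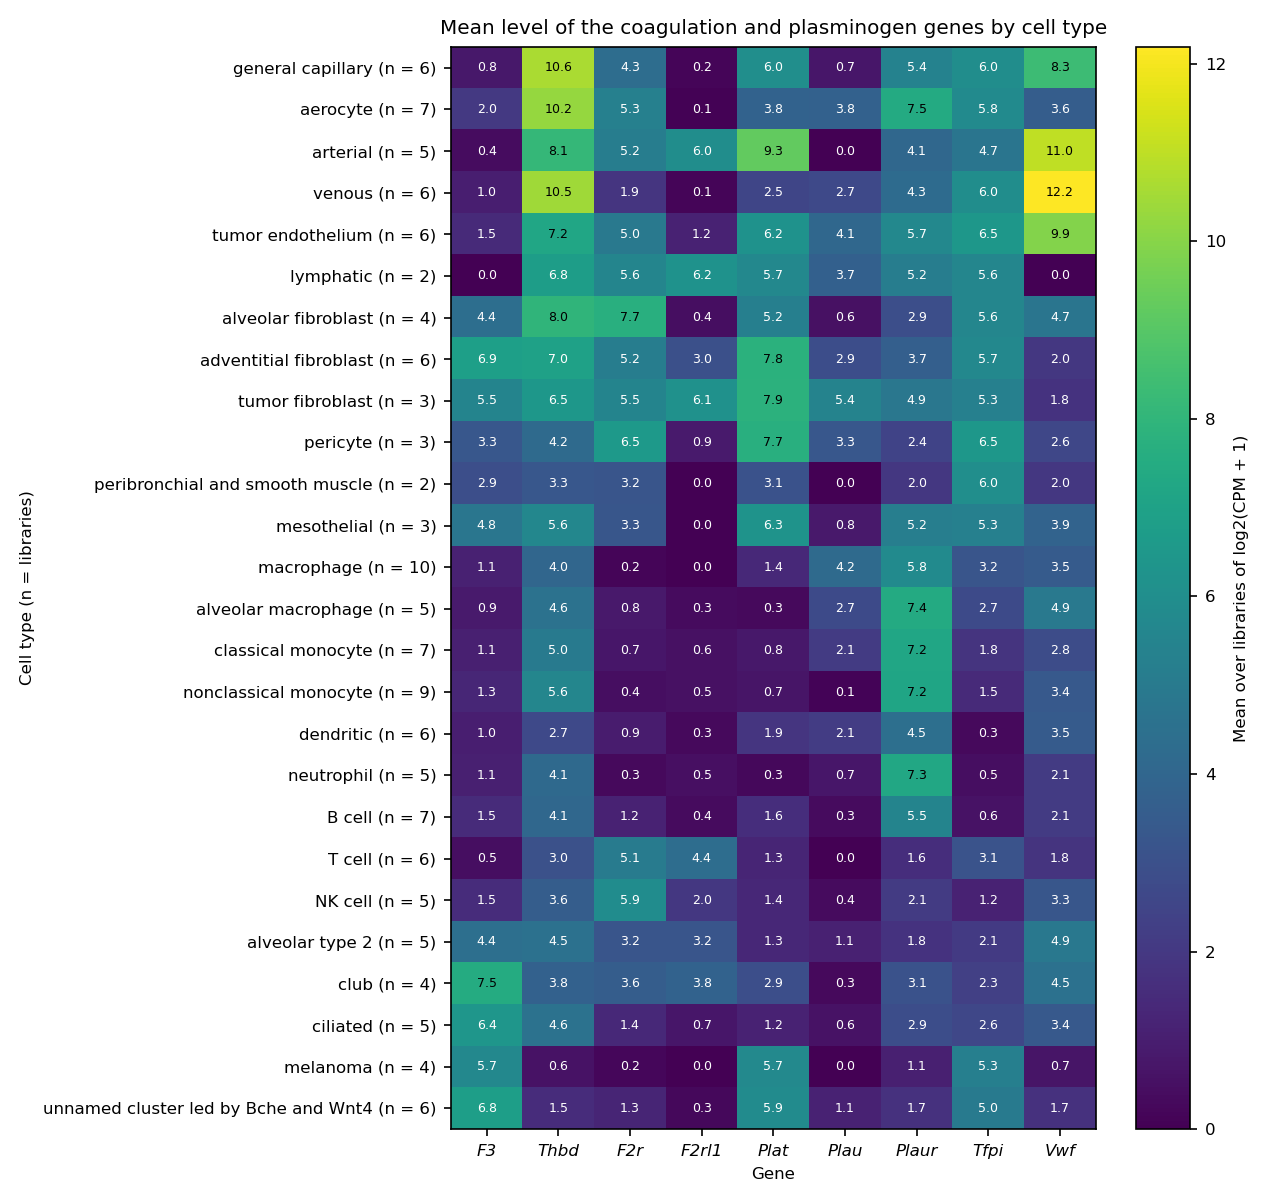
Mean over libraries of log2(CPM + 1) for each of the 9 genes (columns) in each cell type (rows, with the number of libraries n), by color and printed value. *Vwf* reached 12.2 in venous endothelium, *Thbd* 10.6 in general capillary cells and *Plat* 9.3 in arterial endothelium, while *F2rl1* and *Plau* were 6.2 or lower in every type.

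*F3* was highest in club cells, secretory cells of the airway, at 218 ± 180 CPM (SD, n = 4). Adventitial fibroblasts, the cells around larger vessels, followed at 142 ± 83.3 CPM (n = 6), ciliated cells at 89.5 ± 40.7 (n = 5), sorted melanoma cells at 54.1 ± 21 (n = 4) and tumor fibroblasts at 47.3 ± 24.4 (n = 3). Club cells, adventitial fibroblasts and ciliated cells did not differ beyond their spread, and the step down to melanoma cells did. An unnamed cluster led by *Bche* and *Wnt4* held 122 ± 50.4 CPM (n = 6). General capillary endothelium held only 0.989 CPM. At a depth thinned to 1000 UMIs per cell, 10.7% of club cells and 12.9% of adventitial fibroblasts had an *F3* UMI, against 0.37% of NK cells.

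*Thbd* was highest in general capillary endothelium at 1615 ± 247 CPM (n = 6), venous endothelium at 1573 ± 637 (n = 6) and aerocytes, the gas-exchange capillary cells, at 1382 ± 646 (n = 7). These capillary and venous types did not differ beyond their spread and stood apart from arterial endothelium at 377 ± 289 (n = 5). Tumor endothelium, named by *Esm1*, *Angpt2* and related genes, held 160 ± 73.1 CPM (n = 6). Outside vessels *Thbd* was found in adventitial fibroblasts at 355 ± 412 CPM (n = 6), a mean over tissues that differed widely (from 22.3 to 900 CPM), and in alveolar fibroblasts at 284 ± 136 (n = 4). At the thinned depth 72.6% of general capillary cells and 7.14% of NK cells had a UMI.

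*Vwf* ordered the endothelium most sharply. It was 4813 ± 1395 CPM in venous cells (n = 6), 2102 ± 170 in arterial cells (n = 5), 1068 ± 480 in tumor endothelium (n = 6) and 362 ± 221 in general capillary cells (n = 6). Each of these steps was larger than the SD. Aerocytes held 23.3 ± 21.5 CPM (n = 7), at the level of NK cells (24.2 ± 34.4), and lymphatic endothelium had no *Vwf* UMI in its 38 cells.

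**Figure D2:**
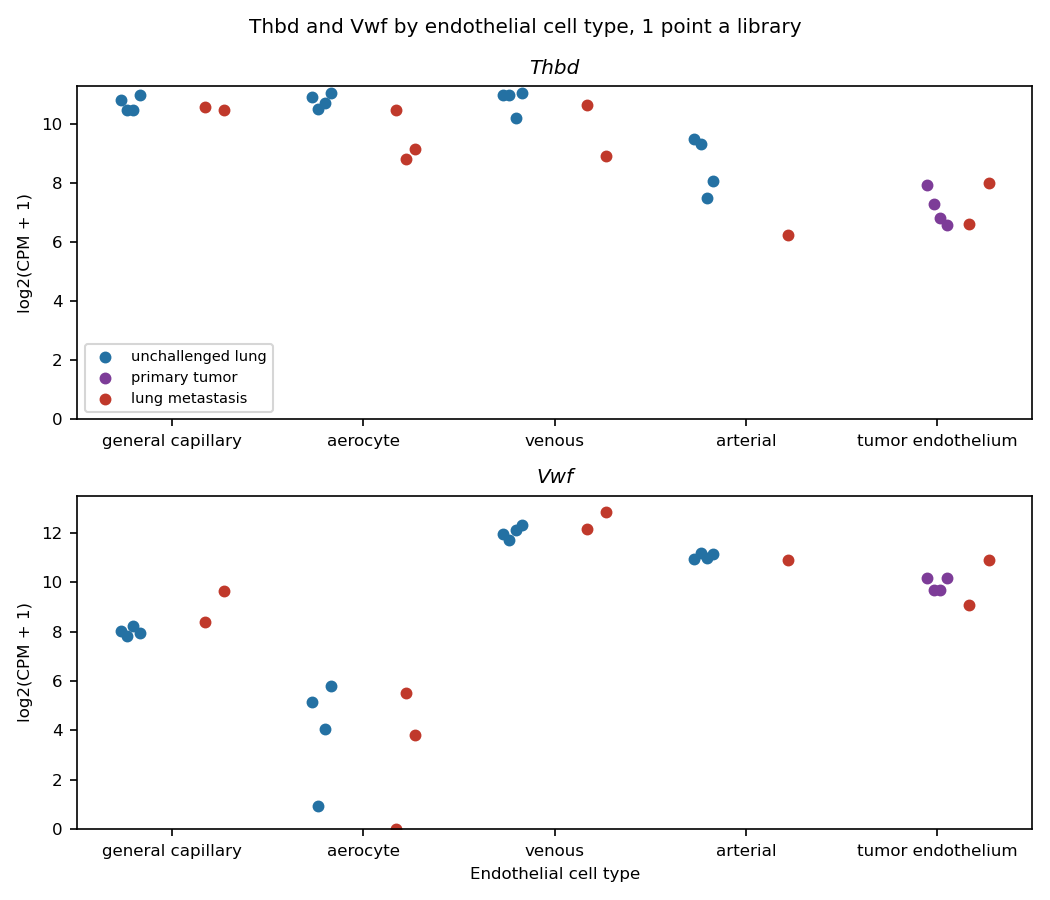
*Thbd* (top) and *Vwf* (bottom) as log2(CPM + 1) in each endothelial type, with 1 point for each library of at least 10 cells colored by tissue. Of the 5 types shown, *Vwf* was lowest in aerocytes and highest in venous cells, and *Thbd* was lower in tumor endothelium than in general capillary cells in all libraries shown.

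Among the receptors, *F2r* was highest in alveolar fibroblasts at 236 ± 139 CPM (n = 4), followed by pericytes at 97.9 ± 39.3 (n = 3). NK cells held 60.4 ± 11.1 CPM (n = 5) and T cells 60.2 ± 38.5 (n = 6). *F2rl1* was low throughout, with 83 ± 56.4 CPM in tumor fibroblasts (n = 3), 72.6 ± 2.89 in lymphatic endothelium (n = 2) and 65.9 ± 26.3 in arterial endothelium (n = 5), which did not differ beyond their spread.

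In the plasminogen system, *Plat* was highest in arterial endothelium at 616 ± 86.7 CPM (n = 5), a step of 1.40 on the log2 scale above tumor fibroblasts against an SD of 0.22. Tumor fibroblasts (231 ± 18.7, n = 3), adventitial fibroblasts (224 ± 71.6, n = 6) and pericytes (207 ± 32.3, n = 3) were alike within their spread. *Plau* was far lower, at 43.2 ± 9.9 CPM in tumor fibroblasts (n = 3), 25.2 ± 15.5 in macrophages (n = 10) and 20.2 in both aerocytes and tumor endothelium. The NK cell level was 0.527 CPM. *Plaur* was spread over aerocytes at 199 ± 105 CPM (n = 7), alveolar macrophages at 180 ± 56.1 (n = 5), neutrophils at 159 ± 29 (n = 5), classical monocytes at 156 ± 68.2 (n = 7) and nonclassical monocytes at 150 ± 48.6 (n = 9), which did not differ beyond their spread. *Plau* and its receptor gene *Plaur* were both found in aerocytes and macrophages.

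*Tfpi* was 94.3 ± 36.2 CPM in tumor endothelium (n = 6), 92.4 ± 32.5 in pericytes (n = 3), 63.8 ± 14.6 in venous and 63.2 ± 18 in general capillary endothelium (n = 6 each). None of the leading types differed beyond the spread. Melanoma cells themselves held 37.9 ± 5.48 CPM (n = 4).

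Within single libraries, classes were compared with an exact two-sided sign-flip test on the difference of log2(CPM + 1), with Benjamini-Hochberg adjustment over 27 tests. The test counts each library as independent. By the mouse numbers in their names, however, metastasis and primary tumor replicates 5 and 6 shared mice, and replicates 1-3 did in part. In the 8 libraries with both classes, endothelial cells exceeded fibroblasts in *Thbd* by 1.25 ± 0.92 (SD) and in *Vwf* by 6.71 ± 2.25, higher in 8 of 8 for each (exact test, adjusted p = 0.0264). Fibroblasts were the higher class for *F2r* in 8 of 8 libraries, with a difference of -1.55 ± 1.28 (exact test, adjusted p = 0.0264), and for *F3* in 7 of 8, with -3.62 ± 2.74 (exact test, adjusted p = 0.0384). *Plat*, *Plau*, *Plaur*, *Tfpi* and *F2rl1* did not pass. With the members among the clustering genes *Plaur* (exact adjusted p = 0.0264) and *Plat* (0.0487) passed, and *Plaur* also passed with the mean of per-cell values (0.0352) and without lung replicate 6 (0.0469). Without lung replicate 5 all 4 calls were lost, with an exact adjusted p of 0.0527 for *Thbd*, *F2r* and *Vwf*. The mean differences of these 3 genes were then 1.29, -1.44 and 6.71. Fewer libraries also raise the smallest p that the exact test can reach, so a loss need not mean a smaller difference. The calls of these 3 genes held under the removal of any other library, while *F3* held only without primary tumor replicate 1-3 (exact adjusted p = 0.0469).

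Against macrophages and monocytes, in 10 libraries, endothelial cells were higher in 10 of 10 for *Thbd* (4.63 ± 0.75), *F2r* (4.09 ± 1.14), *Plat* (5.09 ± 0.94), *Tfpi* (3.33 ± 0.87) and *Vwf* (5.65 ± 1.17), each with an exact adjusted p = 0.0105. *F2rl1* was higher in 8 of 10, by 1.37 ± 1.30 (exact test, adjusted p = 0.0316). Its levels were near the floor, so this difference rests on few UMIs. Its tissue means were 1.57 to 5.80 CPM in endothelial cells and 0.188 to 0.722 CPM in macrophages and monocytes. *Plaur* was lower in 9 of 10, by -0.70 ± 0.65 (exact test, adjusted p = 0.0293). *F2rl1* was lost without metastasis replicate 5 or 6, primary tumor replicate 1-3 or 4 or lung replicate 1, 5 or 6 (exact adjusted p up to 0.0633). *Plaur* was lost without metastasis replicate 6, primary tumor replicate 1-3 or lung replicate 5 or 6 (exact adjusted p up to 0.0586). Only 6 libraries held both fibroblasts and macrophages, where the smallest possible exact p of 0.0312 gave an adjusted p of 0.0527. *Thbd*, *F2r* and *Plat* were then higher in fibroblasts in 6 of 6 libraries and *Plaur* in macrophages in 6 of 6.

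Tissues were compared on UMI sums per library, fitted with edgeR's quasi-likelihood test across all genes that passed the filter on low counts, with Benjamini-Hochberg adjustment and a threshold of 0.05. Of the 9 genes, 7 passed the filter in endothelial cells (*F3* and *F2rl1* did not), 9 in fibroblasts, 6 in macrophages and monocytes and 6 in melanoma cells. The comparisons share groups, so their results are not independent of each other, and the values stand side by side. The libraries are separate mice or pools of mice by the mouse numbers in their names. By these numbers, metastasis and primary tumor replicates 5 and 6 shared mice, and replicates 1-3 did in part. The repeated library names gave the same cells another mouse number, so these numbers are not certain. Primary tumors grew under the skin and metastases in the lung. In primary tumor against lung, the organ and the tumor therefore cannot be told apart, also within 1 cell type. In metastasis against primary tumor, the organ and the kind of tumor cannot be told apart. The study states that its metastasis samples held a little adjacent tissue free of tumor. Metastasis TME replicate 5 held 302 ciliated and 170 alveolar type 2 cells, and replicate 1-3 held 136 alveolar macrophages. How much adjacent lung adds to the metastasis values was not tested. The makeup of each class also differed between tissues. The primary tumor endothelium was mostly tumor endothelium, lung endothelium was general capillary, aerocyte, venous and arterial, and the metastases held both, with replicates 1-3 and 4 mostly general capillary and replicates 5 and 6 mostly tumor endothelium and aerocytes.

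In endothelial cells, the member with the largest log2 fold change was *Thbd*, lower in primary tumors than in lung. The lung libraries held 1842, 1465, 1388 and 2003 CPM in replicates 1, 4, 5 and 6, and the primary tumors 523, 146, 104 and 98.4 in replicates 1-3, 4, 5 and 6. Every primary tumor library was below every lung library, and the log2 fold change was -2.91 (SE 0.64, adjusted p = 0.00389, edgeR). The pooled ratio of UMIs was 0.0962, with a 95% interval of 0.0864 to 0.107 that covers counting error only. The call held in all 17 alternatives. The metastases were split, at 1458 and 1342 CPM in replicates 1-3 and 4 and 178 and 355 in replicates 5 and 6, which are the libraries with many tumor endothelial cells.

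The split followed the run given in the library names, since replicates 5 and 6 share a run and replicates 1-3 and 4 come from others. In the shared run, the lung libraries held 1388 and 2003 CPM and the primary tumors 104 and 98.4. Among the metastases, the run and the makeup of the endothelium cannot be told apart. A split of *Thbd* was also seen within single endothelial types. Aerocytes held 1952, 1463, 1673 and 2126 CPM in the lung libraries, and 1442, 454 and 566 in metastasis replicates 4, 5 and 6. Venous cells held 1591 CPM in metastasis replicate 4 and 486 in replicate 6. In aerocytes alone the metastases did not differ from the lung past the threshold, at a log2 fold change of -1.14 (adjusted p = 0.178, edgeR). For the whole class, *Thbd* stood 1.91 higher on the log2 scale in metastases than in primary tumors (SE 0.62, adjusted p = 0.0795, edgeR), which passed in 6 of 17 alternatives. These were the replicate block (0.0195), DESeq2 (0.0232), no filter on low counts (0.0237), unnamed sub-clusters added (0.0171), and the removal of metastasis replicate 5 (0.0163) or primary tumor replicate 1-3 (0.0135). Against the lung the value was -0.998 (adjusted p = 0.441, edgeR).

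*Plau* and *Tfpi* moved the other way, higher in primary tumor endothelium. *Plau* was 35.6, 29.5, 13.5 and 25.4 CPM in the primary tumors, 11.4, 4.71, 13.3 and 13.5 in the lung and 17.2, 3.31, 4.06 and 10.2 in the metastases. The primary tumor range just touched that of the lung at its lower end and overlapped that of the metastases. The log2 fold change was 1.38 against the lung (SE 0.42, adjusted p = 0.0274, edgeR) and -2.04 for metastases against primary tumors (SE 0.55, adjusted p = 0.0316, edgeR). Both rest on few UMIs, 60 in the primary tumors and 16 in the metastases. The first was lost without primary tumor replicate 1-3, 4 or 6 or lung replicate 1 or 4 (adjusted p up to 0.101), and with the replicate block (adjusted p = 0.0861). The second was lost without primary tumor replicate 1-3, 4 or 6 or metastasis replicate 4 or 5 (adjusted p up to 0.104).

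*Tfpi* was 117, 129, 100 and 82.1 CPM in primary tumors, 88, 62, 52.1 and 62.8 in the lung and 40.2, 52.9, 42.9 and 63.8 in metastases. All primary tumor libraries were above all metastasis libraries and 3 of 4 above all lung libraries. The log2 fold change was 0.80 against the lung (SE 0.23, adjusted p = 0.0194, edgeR) and -1.13 for metastases against primary tumors (SE 0.25, adjusted p = 0.0122, edgeR). Without primary tumor replicate 4 both calls were lost, at adjusted p of 0.0878 and 0.0556, and without lung replicate 5 the first was lost at 0.065.

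*Vwf* did not follow the tissues. Its level was 945, 789, 792 and 1108 CPM in primary tumors and 685, 474, 1186 and 1462 in the lung, with a log2 fold change of 0.04 (SE 0.49, adjusted p = 0.969, edgeR). The metastases ran from 462 to 2665 CPM, the widest range of the 3 tissues. *Plat* was 86.1, 102, 89.8 and 117 CPM in metastases, above all libraries of primary tumor (53.9 to 75) and lung (39.3 to 75.6), yet it did not pass the test against either, at adjusted p of 0.151 and 0.117 (edgeR) and log2 fold changes of 0.62 and 0.74. *Plaur* ran from 35.3 to 147 CPM and *F2r* from 14 to 61, with overlapping groups.

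**Figure D3:**
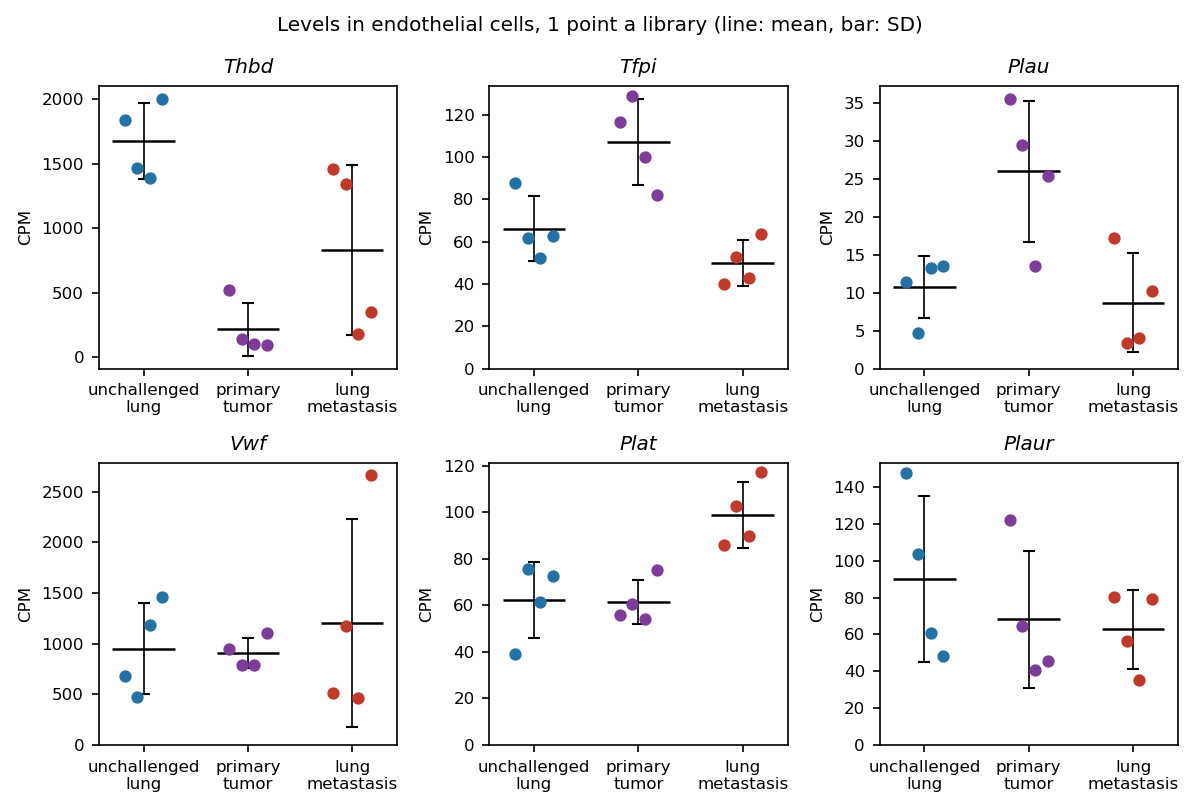
Level in CPM of 6 genes in endothelial cells, with 1 point for each library, the mean as a line and the SD as a bar, by tissue (4 libraries each). *Thbd* was 98.4 to 523 in primary tumors and 1388 to 2003 in unchallenged lung, and the metastases fell into a high and a low pair.

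The members called in endothelial cells were 3 of 7 for primary tumor against lung, 2 higher and 1 lower, where 24.1% of the 9181 genes tested were called, 12.3% higher and 11.8% lower. For metastasis against primary tumor they were 2 of 7, both lower, against 7.77% of genes, 3.17% in that direction. For metastasis against lung they were 0 of 7, against 2.79% of genes. There *Plat* alone of the 7 had an unadjusted p under 0.05 by edgeR, as did 1454 of the 9181 genes tested. DESeq2 called 0 of the 7. The median log2 fold change of the members was 0.12, -0.15 and -0.33 in the 3 comparisons, beside -0.03, 0.07 and 0.03 over all genes tested. Markers of other cell types moved with these groups. The fibroblast list summed to 909 to 1988 CPM in primary tumor endothelium and 49.9 to 551 in the lung. In the primary tumors this was 2.87% to 7.7% of its level in fibroblasts of the same library. *Plau* stood at 42.2% to 83.2% of the fibroblast level in replicates 4, 5 and 6. The macrophage list stood at 4.93% and 5.35% of its level in macrophages of primary tumor replicates 1-3 and 4, and *Plau* at 89.9% and 85%. The part of RNA from these cells in the result was not tested.

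The wider pathway list held 50 genes, of which 17 were tested in endothelial cells. Its most abundant members were *Anxa2* (441 CPM) and *S100a10* (417 CPM), the annexin A2 complex that binds plasminogen and tissue-type activator, and *Tgm2* (150 CPM), a transglutaminase. In primary tumor against lung 8 of 17 were higher and 0 lower, among them *Itga2b* (log2 fold change 6.05), *Procr* (4.64), the endothelial protein C receptor, *Thbs1* (4.17), *Serping1* (3.40), *Itgb3* (3.64) and *Selp* (3.65). In metastasis against primary tumor 0 were higher and 5 lower, *Itga2b* (-3.73), *Selp* (-3.21), *Procr* (-2.21), *Serping1* (-2.23) and *Thbs1* (-1.99). *Procr* (2.44) and *Itgb3* (3.39) were the 2 higher in metastasis than in lung. Thrombomodulin and the protein C receptor, partners in protein C activation, were thus called in opposite directions between primary tumor and lung. *Itga2b* and *Itgb3* encode the platelet fibrinogen receptor, and 6 platelet markers summed to 11.2 to 147 CPM in primary tumor endothelium and 5.37 to 7.37 in the lung, with *Tubb1*, *Treml1* and *Gp6* at 0 in the primary tumors. *Mmrn1*, another of the 6, is also on the list of lymphatic endothelial markers, so that the sum is not particular to platelets. The part of platelet RNA was not tested.

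In fibroblasts, 3 lung libraries (56, 136 and 780 cells in replicates 4, 5 and 6) were set against 4 of primary tumor (10, 134, 113 and 575 cells) and 1 of metastasis (159 cells in replicate 5). A p-value with that single library takes its spread from the other groups and assumes that the lone library varies like them. The lung cells were mostly alveolar and adventitial, the primary tumor cells tumor and adventitial fibroblasts, and the metastasis cells mostly alveolar. Pericytes, smooth muscle, mesothelial cells and the unnamed cluster led by *Bche* and *Wnt4* were outside this class. In metastasis replicate 5, 211 cells were mesothelial and 769 were in that cluster. The study lists *Wnt4* and *Wt1* in the signature of its metastasis cancer-associated fibroblasts. Whether those fibroblasts lie in the cells left out was not tested. Where a library had no UMI, 3 counts set the limit, which is 85.1 CPM for the 10 cells of primary tumor replicate 1-3.

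*Thbd* was lower in primary tumor fibroblasts as in endothelium. It was 349, 699 and 342 CPM in the lung, 113, 122, 42.6 and 72.3 in the primary tumors and 151 in the metastasis. The lung and primary tumor ranges did not overlap, and the log2 fold change was -2.47 (SE 0.47, adjusted p = 0.00647, edgeR) with a pooled ratio of 0.165 (0.146 to 0.186). In adventitial fibroblasts alone the lung held 828 and 900 CPM, the primary tumors 23.9, 25.6 and 22.3 and the metastasis 330. For primary tumors against lung the log2 fold change was -5.04 (adjusted p = 7.93e-16, edgeR). This fit was not planned, and its p rests on these few libraries. Endothelial markers in lung fibroblasts stood at 1.71% to 6.82% of their level in endothelial cells of the same library, and *Thbd* at 17.1% to 50.4%. The part of endothelial RNA in the result was not tested.

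In the fibroblast class as a whole, the protease-activated receptors went in opposite directions between primary tumor and lung. *F2rl1* (PAR2) was 70.1, 107 and 36.3 CPM in primary tumor replicates 4, 5 and 6 and 0 in replicate 1-3, while the lung libraries had 0, 0 and 3 UMIs (2.05 CPM in replicate 6) and the metastasis had 0. The limits for a count of 0 were 11.1 and 3.41 CPM in lung replicates 4 and 5 and 6.28 in the metastasis. The primary tumors held 235 UMIs against 3 in the lung, a pooled ratio of 45.2 with a counting interval of 15.3 to 221, and the fit gave an adjusted p of 0.00203 (edgeR) that held in all 16 alternatives. In adventitial fibroblasts alone, in libraries with at least 10 such cells, *F2rl1* was 47.8, 74.1 and 66.9 CPM in the primary tumors. It was 0 in the lung libraries and in the single metastasis library of that size. For *F2rl1* in the metastasis against primary tumors, the log2 fold change was -8.96, and -7.28 in adventitial fibroblasts alone. It did not pass in the main fit, and whether it passed elsewhere depended on the setting. These values rest on a single metastasis library with 0 UMIs, which has no spread of its own.

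*F2r* (PAR1) was 290, 132 and 131 CPM in lung fibroblasts, 85.1, 35.7, 50.2 and 46.3 in primary tumors and 69.1 in the metastasis. The lung libraries were all higher, with a log2 fold change of -1.87 (SE 0.38, adjusted p = 0.00824, edgeR). This difference did not hold within one fibroblast type. In adventitial fibroblasts alone it turned to 1.11 (adjusted p = 0.0986, edgeR), and the alveolar fibroblasts that hold most *F2r* (321, 385 and 142 CPM in the lung and 96.9 in the metastasis) were not found in primary tumors.

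*Plau* was 39.7, 32 and 30.5 CPM in primary tumor replicates 4, 5 and 6, with 0 in replicate 1-3, and 0, 6.81 and 4.1 in the lung. Apart from the library of 10 cells, the primary tumors were all higher, and the log2 fold change was 2.86 (SE 0.64, adjusted p = 0.0139, edgeR). It was lost without primary tumor replicate 4 (adjusted p = 0.0525) and without replicate 6 (adjusted p = 0.0656). The metastasis held 6.28 CPM, from 3 UMIs.

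*Vwf* was also called, at -3.33 (adjusted p = 0.0465, edgeR), but lung replicate 6 alone was high, at 142 CPM against 7.43 and 10.2 in the other lung libraries. Without it the adjusted p was 0.673, and the call held in 4 of 13 alternatives. It was also lost without any 1 of the primary tumor libraries (0.0987 to 0.105), with at least 20 cells, with the members among the clustering genes (0.112) and with unnamed sub-clusters added (0.0892). Endothelial markers in the fibroblasts of that library stood at 6.82% of their endothelial level and *Vwf* at 9.72%. *F3* was 111, 152 and 56 CPM in the lung and 0, 37, 89.8 and 34.4 in primary tumors, with a log2 fold change of -1.04 (adjusted p = 0.237, edgeR) that passed in 2 of 16 alternatives, at -1.36 (adjusted p = 0.0383) with the members among the clustering genes and at -1.43 (adjusted p = 0.00474) in adventitial fibroblasts alone. *Plat* was 227, 233, 216 and 215 CPM in primary tumors and 81.7, 265 and 43 in the lung. The 227 CPM is in replicate 1-3, where 3 counts make 85.1 CPM. By edgeR the adjusted p was 0.43, and 0.0147 without lung replicate 5. *Tfpi* and *Plaur* did not pass, and *Plaur* passed with the members among the clustering genes (1.74, adjusted p = 0.0409).

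**Figure D4:**
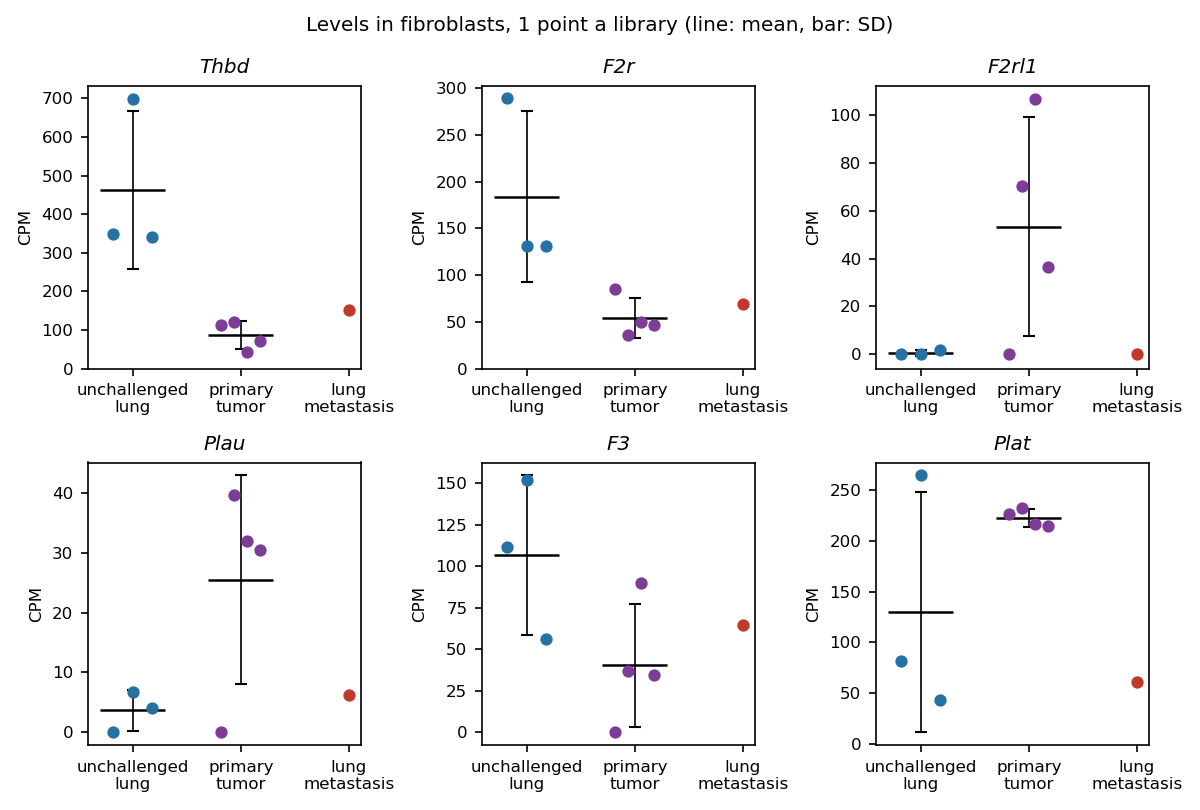
Level in CPM of 6 genes in fibroblasts, with 1 point for each library, the mean as a line and the SD as a bar, for 3 lung, 4 primary tumor and 1 metastasis library. *Thbd* and *F2r* were higher in each lung library than in each primary tumor library, and *F2rl1* was above 30 CPM only in 3 primary tumor libraries.

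In primary tumor against lung fibroblasts 5 of 9 members were called, 2 higher and 3 lower, where 13.9% of the 11471 genes tested were called, 5.76% higher and 8.17% lower. With a single metastasis library, 0 of 9 were called against primary tumor, where 1.15% of genes were, and 0 of 9 against the lung, where 0.139% were. The median log2 fold change of the 9 members was 0.39 in the former and -1.30 in the latter. Over all genes tested it was -0.09 and -0.15. DESeq2 called 0 of the members in either comparison. In adventitial fibroblasts alone *Thbd* was 3.68 higher on the log2 scale in the metastasis, again 1 library with 20 such cells, than in primary tumors. It was called there, but only with the spread of the other groups, and the spread between metastases is not known. The median log2 fold change of the 9 members between primary tumor and lung was -0.14, beside -0.05 over all genes. The melanoma marker list summed to 397 to 1705 CPM in primary tumor fibroblasts and 0 to 3.42 in lung fibroblasts. Sorted melanoma cells held no *F2rl1* UMI and at most 0.0525 CPM of *Plau*, and they held 32.2 to 75.6 CPM of *F3*, 22.7 to 116 of *Plat* and 30.8 to 42.8 of *Tfpi*. The part of melanoma RNA in the fibroblast results was not tested.

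Of the pathway list 23 genes were tested in fibroblasts, with *Serping1* (1184 CPM), the C1 inhibitor, *Lrp1* (924 CPM), a clearance receptor for activator and inhibitor complexes, and *S100a10* (542 CPM) the most abundant. In primary tumor against lung 4 were higher and 1 lower. Among the higher ones were *Itgb3* (log2 fold change 3.33), *Tfpi2* (3.86) and *Kng2* (6.56), and the lower one was *F7* (-4.93), the plasma partner of tissue factor.

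In macrophages and monocytes, 4 lung and 4 metastasis libraries were set against 2 primary tumor libraries, replicates 1-3 and 4. Primary tumor replicates 5 and 6 held only 3 and 1 macrophages and did not enter. The primary tumor group thus has no library of their run, unlike the lung and the metastases. *Plau* was the gene that separated the tissues. It was 39.5 and 34.7 CPM in primary tumors, 15.1, 11.1, 5.13 and 22.9 in metastases and 2.78, 3.21, 1.37 and 4.13 in the lung. The 3 ranges did not overlap, but the lowest metastasis value, in replicate 5, is 1 UMI and under the 15.4 CPM that 3 counts make there. The log2 fold change against the lung was 3.79 for primary tumors (SE 0.38, adjusted p = 0.000275, edgeR) and 2.43 for metastases (SE 0.40, adjusted p = 0.00946, edgeR), with pooled ratios of 12.1 (9.69 to 15.1) and 5.23 (3.72 to 7.31). Metastases against primary tumors did not pass, at -1.37 (adjusted p = 0.28, edgeR), and passed with no filter on low counts (adjusted p = 0.0262).

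The makeup of this class differed, since 2032 of 2165 cells in primary tumor replicate 4 fell into clusters named macrophage, while lung libraries were mostly monocytes and alveolar macrophages. In the macrophage clusters alone *Plau* was 48 and 36.9 CPM in primary tumors, 31.4, 40.9, 6.44 and 33.7 in metastases and 0, 17.5, 19.6 and 17 in the lung. The difference was smaller there, at 1.60 for primary tumors (adjusted p = 0.0445, edgeR) and 1.09 for metastases (adjusted p = 0.217, edgeR). For the whole class, leaving out metastasis replicate 1-3 or 6 brought the metastasis value to an adjusted p of 0.0524 or 0.0518. Fibroblast markers reached 0.155% and 0.505% of their fibroblast level in the primary tumor macrophages, and *Plau* 87.4% of the fibroblast level in replicate 4. The part of fibroblast RNA was not tested.

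*Plaur*, the receptor gene, did not separate the tissues in the whole class. It was 207, 149, 124 and 95.8 CPM in the lung, 221 and 83.8 in primary tumors and 142, 201, 20.5 and 150 in metastases, with overlapping groups and log2 fold changes against the lung of 0.17 and -0.12. In the macrophage clusters alone the picture differed. There the lung held 15, 10.5, 29.4 and 26.5 CPM, the primary tumors 206 and 79.5, and the metastases 109, 276, 25.8 and 155, so that only metastasis replicate 5 overlapped the lung. The log2 fold changes were 2.82 for primary tumors (adjusted p = 0.00481, edgeR) and 2.70 for metastases (adjusted p = 0.00519, edgeR).

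*Thbd* was lower in primary tumors here as well, at 19.8 and 8.75 CPM against 38.2, 43.6, 54.4 and 74.5 in the lung, without overlap. The log2 fold change was -1.85 (SE 0.39, adjusted p = 0.0131, edgeR), and it was lost without primary tumor replicate 4 (adjusted p = 0.255) and in the macrophage clusters alone (-1.90, adjusted p = 0.118). Endothelial markers stood at 0.532% to 2.59% of their endothelial level in these lung and primary tumor libraries, and *Thbd* at 2.07% to 5.99%, and the part of endothelial RNA was not tested. Over the host libraries of all tissues, mean *Thbd* was 27.4 to 51.5 CPM in the macrophage and monocyte types. T cells held 16.9 CPM, NK cells 35.5 and ciliated cells 52.4. For *Vwf* the means were 10.3 to 31.3 CPM in the types of this class, 4.67 in T cells, 24.2 in NK cells and 23.7 in ciliated cells. *Vwf* was 3.77 and 9.8 CPM in primary tumors and 10.3 to 44 in the lung (log2 fold change -1.65, adjusted p = 0.0513, edgeR). This passed with DESeq2 (0.0216), with no filter (0.00134), with the members left among the clustering genes (0.0431) and without lung replicate 4 (0.0163), and it was 0.328 with the replicate block. *Tfpi* ran from 1.5 to 10.3 CPM and *F3* from 0 to 19.8, and neither passed, although *F3* in primary tumors against lung had an adjusted p of 0.0320 with the replicate block.

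**Figure D5:**
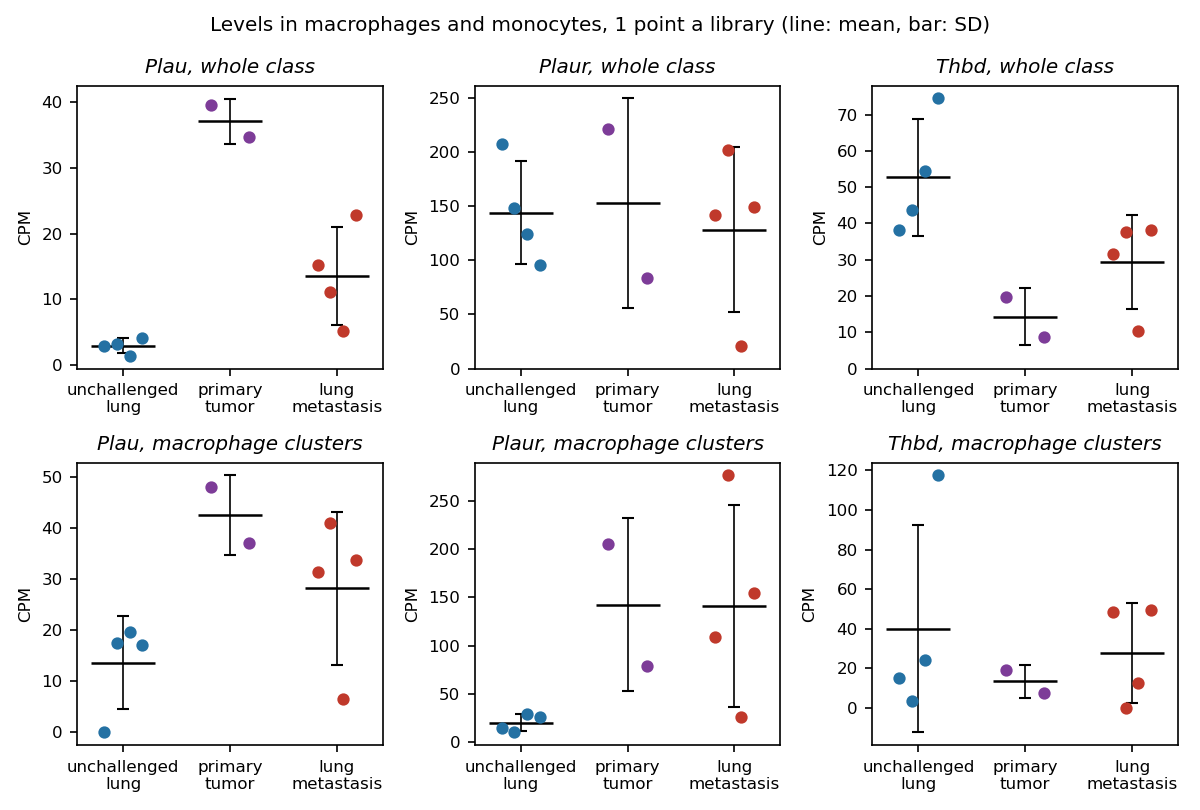
Level in CPM of *Plau*, *Plaur* and *Thbd* in all macrophages and monocytes (top) and in the macrophage clusters alone (bottom), with 1 point for each library, the mean as a line and the SD as a bar. *Plau* was 34.7 and 39.5 in primary tumors and at most 4.13 in the lung for the whole class, and *Plaur* separated most tumor libraries from the lung only in the macrophage clusters.

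The members called were 2 of 6 in primary tumor against lung, 1 higher and 1 lower, where 10.1% of the 11622 genes tested were called, 5.48% higher and 4.65% lower. They were 1 of 6 in metastasis against lung, where 1.45% of genes were called and 1.27% higher, and 0 of 6 in metastasis against primary tumor, where 0.155% were. In the last comparison *Thbd*, *Plau* and *Vwf* had an unadjusted p under 0.05 by edgeR, as did 1038 of the 11622 genes tested. DESeq2 called 0 of the 6. Of the pathway list, 23 genes were tested, led by *Anxa2* (712 CPM), *S100a10* (549 CPM) and *Lrp1* (403 CPM). In primary tumor against lung 5 were higher and 2 lower, among them *Pf4* (log2 fold change 4.74), *Thbs1* (5.11), *Ppbp* (5.54) and *F13a1* (1.39), the A subunit of the fibrin-stabilising factor, against *Itgb3* (-2.80) and *Serpinb2* (-3.27), an inhibitor of urokinase. *Pf4* (3.83) and *Thbs1* (6.11) were the 2 higher in metastasis than in lung. *Pf4* and *Ppbp* are also platelet genes, and the 6 platelet markers summed to 1.57 and 2.26 CPM in primary tumors and 5.13 to 40.2 in the lung. Whether platelet RNA has a part in these values was not tested.

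In sorted melanoma cells 3 of the 9 genes were found above a few CPM. *F3* was 75.6 and 68.2 CPM in primary tumor replicates 4 and 5 and 40.5 and 32.2 in the metastasis replicates of the same numbers. The metastasis libraries were both lower, at a log2 fold change of -1.05 (SE 0.35, unadjusted p = 0.00873, adjusted p = 0.969, edgeR). *Plat* was 61.4 and 44.1 CPM in primary tumors and 116 and 22.7 in metastases, and *Tfpi* was 42.8 and 41.6 against 36.4 and 30.8. *Thbd*, *F2r*, *Plaur* and *Vwf* were at most 2.02 CPM, *Plau* at most 0.0525 CPM, and *F2rl1* had no UMI in 48144 melanoma cells. None of the 6 members tested was called, where 0.0279% of the 14319 genes tested were, and DESeq2 called none of them. *F3* and *Vwf* had an unadjusted p under 0.05 by edgeR, as did 465 of the 14319 genes tested. Of 20 pathway genes tested 0 were called, and *S100a10* (555 CPM), *Anxa2* (363 CPM) and *Serpine2* (214 CPM), a thrombin and urokinase inhibitor, were the most abundant.

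The likeness of patterns was measured as Pearson's r of mean log2(CPM + 1) across 26 cell types, over 12120 genes with at least 20 CPM in one type. The types share libraries, and r is given as a description. The closest genes to *F3* were *Pygo1* (0.89), *Naaladl2* (0.88) and *Osbpl6* (0.87). For *Thbd* they were *Tmem100* (0.92), *Calcrl* (0.90) and *Fzd4* (0.89), and for *Vwf* *Ptprr* (0.89), *Sox17* (0.89) and *Samd12* (0.88). *Tfpi* had the closest matches, *Rhoj* (0.94), *Tspan4* (0.93) and *Cd151* (0.93). For *F2r* they were *Hoxb3* (0.85), *Ptch1* (0.81) and *Sept4* (0.80), and for *F2rl1* *Lrig1* (0.72), *1110002L01Rik* (0.65) and *Sh3gl3* (0.62). *Plat* followed *Fkbp7* (0.90), *Nid1* (0.89) and *Col5a2* (0.89), genes of the endoplasmic reticulum and of matrix proteins, *Plau* followed *Meox1* (0.77), *Ccl7* (0.72) and *Nid2* (0.71), and *Plaur* followed *Gngt2* (0.83), *Lyn* (0.81) and *Riok3* (0.79).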

How the data were processed

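The deposited counts table was used. It lists UMIs for every gene and cell, and the authors made it with Cell Ranger 6.1.1 on GRCm38 from 10x 3' libraries and filtered for cells by quantiles of detected genes and of mitochondrial and ribosomal share. The deposited cell table gives those shares in percent. A second deposited table of log-normalized values was not used. The 24 library names of 110283 barcodes held 5 repeats of the same cells, and 9924 barcodes were removed. No doublet caller was run.

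Cells were clustered with Seurat 5.3.0 (2000 variable genes without the members and pathway genes, 17 principal components, 12 within compartments, resolution 0.5). Clusters were named by at least 3 raised markers of a list. The naming rule was set with the clusters in view, and the members, lists and tests were chosen with earlier results of these data known. A library entered a class with at least 10 cells. UMI sums were tested with edgeR 4.0.16 (filter by expression, TMM, quasi-likelihood F test, 1 fit per class), and DESeq2 1.42.0 was an alternative. The SE is the log2 fold change divided by the square root of F. Fits in adventitial fibroblasts, aerocytes or macrophage clusters alone, with unnamed sub-clusters added or with at least 5 cells were not planned. Classes within libraries were compared with exact sign-flip tests on log2(CPM + 1). Shares of cells were taken after thinning to 1000 UMIs, which left out 5144 cells. Intervals are exact at 95% and cover counting error only. Named were all 9 members, up to 6 called pathway genes per comparison by adjusted p, the 3 most abundant per class, and the 3 genes most like each member, except for 1 pathway gene that is not reported here. On simulated counts, the fit of primary tumor against lung recovered 86% of 4-fold and 5% of 2-fold changes in endothelial cells, 62% and 3% in fibroblasts and 69% and 7% in macrophages and monocytes, and 17% and 2% between melanoma groups. The changed genes were drawn from the more abundant ones, and all genes had the same simulated dispersion. Recovery for members with few UMIs was thus not simulated.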

Additional observations from a re-analysis of the deposited data

Results flagged for a closer look

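In 42 groups of 4 libraries, 5 held 1 library far below the rest, and chance gives about 1 in 20. Lung replicate 4 had 4.71 CPM of *Plau* in endothelial cells, against 11.4 to 13.5 in the other lung libraries. Primary tumor replicate 1-3, with 10 fibroblasts, had 0 CPM of *Plau* against 30.5 to 39.7 and 0 CPM of *Tfpi* against 30.4 to 48.7, both under the 85.1 CPM that 3 counts make there. Metastasis replicate 5, with 35 macrophages and monocytes, had 20.5 CPM of *Plaur* against 142 to 201 and 10.3 CPM of *Thbd* against 31.4 to 38.1.

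Signals also stood in cells that no comparison used. An unnamed cluster led by *Bche* and *Wnt4* in the MM libraries held *F3* at 161 CPM in metastasis replicate 4 (97 UMIs), and at 202 (72 UMIs) and 100.1 (116 UMIs) in primary tumor replicates 4 and 5. *Plat* was 51.4, 56.1 and 53.5 CPM in the same cells, and *Tfpi* was 36.3 CPM in primary tumor replicate 5. The sorted MM library of metastasis replicate 4 also held 11 alveolar macrophages with *Plaur* at 286 CPM, above the 108 to 245 of the lung libraries, and 12 general capillary cells with *Vwf* at 1135 CPM, above 224 to 299 in the lung and above 336 and 806 in metastasis TME replicates 1-3 and 4. These are few cells in a sort meant for melanoma, and the differences were not tested.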

How the results depend on the processing

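In fibroblasts, metastasis against primary tumor called 132 genes, and 221 with DESeq2, 319 with no filter, 87 with at least 20 cells, 348 with at least 5, 384 with the members among the clustering genes, 74 with the replicate block and 311 in adventitial fibroblasts alone. Metastasis against lung called 16, and 43, 59, 26 and 37 with DESeq2, no filter, members in the clustering and adventitial fibroblasts alone. Primary tumor against lung called 1598, and 2635 with no filter and 1045 in adventitial fibroblasts. In endothelial cells, 713 for metastasis against primary tumor became 1160 with unnamed sub-clusters added, and 256 against lung became 662 with no filter and 53 in aerocytes. In macrophages and monocytes, metastasis against primary tumor called 18, and 180 with DESeq2, 454 with no filter, 72 with the block and 0 in macrophage clusters alone. Metastasis against lung called 168, and 475, 704 and 468 with DESeq2, no filter and macrophage clusters. Primary tumor against lung called 1177, and 1840, 2347, 750 and 420 with DESeq2, no filter, the block and macrophage clusters. Melanoma cells had 4, and 25, 84, 113 and 0 with DESeq2, no filter, the block and members in the clustering. Fibroblasts against macrophages within libraries gave 0 members, and 4 with members in the clustering.

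Leaving out 1 library gave 53 to 345, 11 to 22 and 564 to 1679 genes in the 3 fibroblast comparisons in the order above, 359 to 1129 and 71 to 668 in the first 2 endothelial ones and 1659 to 2700 for primary tumor against lung. It gave 0 to 52, 62 to 293 and 156 to 1555 in macrophages and monocytes and 14 to 49 in melanoma cells, where the lone library left is assumed to vary like the others. Members called within libraries were 0 to 4, 5 to 7 and 0 to 0 for endothelial cells against fibroblasts, endothelial cells against macrophages and fibroblasts against macrophages. Reversed were *F2r* of fibroblasts in primary tumor against lung (1.11 in adventitial fibroblasts alone) and *Plaur* of macrophages and monocytes in metastasis against lung (2.70 in macrophage clusters alone). The cause was not tested. By the mouse numbers in the library names, replicate numbers stand for shared mice only in metastasis and primary tumor replicates 5 and 6, and in part in 1-3. Over 10 same-numbered pairs of endothelial libraries, lung included, the deviations correlated between -0.123 and 0.223. Over 38 pairs of unlike number they correlated between -0.305 and 0.284. The block changed the calls of *Thbd* in endothelial cells of metastasis against primary tumor, *Plau* in endothelial cells of primary tumor against lung and *F3* in macrophages and monocytes. DESeq2 gave no adjusted p for *Vwf* in fibroblasts.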
